A study of Mus musculus with 2 samples.

Results

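The cells described here are CD8 T cells of mouse B16-F10 melanomas that carried transcripts of granzyme C or granzyme F, called granzyme C/F cells below and members in the plots. They were chosen from their own RNA counts: at least 1 UMI (1 counted RNA molecule) each of Cd3e, Cd8a and Cd8b1, 0 of Cd4, Foxp3 and Csf1r, at most 2 of the cycling genes Mki67 and Top2a together, and at least 3 of Gzmc and Gzmf together. That rule took 272 cells, 1.21% of the 22490 barcodes kept with at least 300 genes and at most 10% mitochondrial UMIs, and 10.1% of the 2706 cells that passed every other part of the rule (CD8 T cells below). The 2434 CD8 T cells with fewer than 3 Gzmc and Gzmf UMIs, called the other CD8 T cells, served for comparison. A narrower comparison used the 1589 of them with a Pdcd1 UMI and no Tcf7 UMI, that is, without naive and memory-like cells.

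The study asked how induced loss of Trex1 changes the immune response to a melanoma. Male mice aged 8 to 12 weeks carried R26CreERT2, a Cre recombinase under a ubiquitous promoter that tamoxifen switches on in host cells generally, not in T cells alone. The 4 iKO samples are labelled Trex1 fl/fl-R26CreERT2-ki/wt. The 4 control samples carried the same Cre with 1 conditional and 1 wild-type Trex1 allele, and so kept a functional copy without being wild type themselves. All mice had 1000 B16-F10 cells in Matrigel placed in the skin of both legs, were given 1 mg tamoxifen daily for 3 days starting on day 5, and were analysed on day 14. Leukocytes were enriched on beads and sorted as live CD45+ cells. The 4 hashtagged samples of a genotype were run as 1 pool, and the effects of pool and genotype cannot be told apart anywhere. The labels do not say that each sample was 1 mouse, and p-values measure only the spread between these samples, which may be technical.

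Granzymes are serine proteases that cytotoxic lymphocytes store in granules and release, with the pore-forming protein perforin, onto target cells. Granzyme B cleaves caspases and other death substrates. Mice carry beside it a cluster of related genes, among them granzymes C, D, E, F, G and N. T cells and NK cells switch on several of these late, after strong or lasting stimulation. TREX1 is a DNA exonuclease of the cytosol, and in its absence DNA accumulates that the cGAS-STING pathway senses, which induces type I interferon.

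In the RefSeq annotation of GRCm38.p6 the cluster lies on chromosome 14 in the order Ctsg, Gzme, Gzmd, Gzmg, Gzmn, Gzmf, Gzmc, Gzmb and Atp12a. Printed below are the 250 bases before the annotated start of the 2 genes of the rule and of Gzmd and Gzme. Among genes outside the rule, Gzmd and Gzme differed most between the granzyme C/F cells and the other CD8 T cells. Of the 272 granzyme C/F cells, 66 had a UMI of Gzmd or Gzme. All 4 genes are on the minus strand, and each sequence is written 5′ to 3′ on that strand. Capitals mark matches to TGTGGT, the core letters bound by RUNX factors, or to its reverse complement ACCACA. The stretches are chr14:56234658-56234907 for Gzmc, chr14:56211408-56211657 for Gzmf, chr14:56132594-56132843 for Gzmd and chr14:56120626-56120875 for Gzme.
Gzmc: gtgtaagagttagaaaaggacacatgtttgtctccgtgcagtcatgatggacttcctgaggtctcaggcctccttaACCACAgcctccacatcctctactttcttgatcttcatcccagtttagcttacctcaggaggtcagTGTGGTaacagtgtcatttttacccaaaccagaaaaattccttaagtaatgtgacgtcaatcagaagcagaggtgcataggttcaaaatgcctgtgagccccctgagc
Gzmf: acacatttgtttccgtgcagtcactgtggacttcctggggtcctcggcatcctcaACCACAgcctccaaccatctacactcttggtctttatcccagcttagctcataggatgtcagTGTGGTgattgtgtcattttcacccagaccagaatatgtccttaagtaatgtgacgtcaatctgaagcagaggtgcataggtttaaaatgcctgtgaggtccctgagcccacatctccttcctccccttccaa
Gzmd: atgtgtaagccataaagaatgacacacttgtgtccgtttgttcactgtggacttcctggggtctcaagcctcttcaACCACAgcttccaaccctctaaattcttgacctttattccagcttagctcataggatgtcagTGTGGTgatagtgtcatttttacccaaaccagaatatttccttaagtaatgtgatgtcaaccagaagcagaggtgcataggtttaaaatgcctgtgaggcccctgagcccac
Gzme: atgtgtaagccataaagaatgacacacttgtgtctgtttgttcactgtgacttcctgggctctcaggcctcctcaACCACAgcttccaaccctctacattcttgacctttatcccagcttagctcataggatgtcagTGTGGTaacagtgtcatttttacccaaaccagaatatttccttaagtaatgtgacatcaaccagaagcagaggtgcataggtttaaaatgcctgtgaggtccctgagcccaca

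Each of the 4 stretches held 2 RUNX matches, 1 on either strand, and none held the AP-1 letters TGANTCA on either strand. The first match began 174 bases before the start in Gzmc, 195 in Gzmf, 174 in Gzmd and 175 in Gzme, and the second 108, 133, 112 and 113 bases before it. For Gzmf, Gzmd and Gzme the bases after the annotated start were found in the opening part of the gene's reference transcript. For Gzmc they were not, so its distances refer to the RefSeq start alone. Of 32851 RefSeq promoter stretches of the same length, 14.0% held a RUNX match, 1.27% held 2 or more, and 6.75% held an AP-1 match. The stretch before Gzmb held 2 RUNX matches and 1 AP-1 match. The Gzmd and Gzme stretches were 94.8% identical, those of Gzmc and Gzmd 81.3%, and those of Gzmc and Gzmf 71.5%, against 47.3% to 52.4% for each of the 4 with Gzmb. The transcript ends, where 3′ reads fall, were also alike. Over the last 500 bases Gzmd and Gzme were 89.4% identical, Gzmf and Gzmd 84.0%, and Gzmc and Gzmf 56.9%. In those last 500 bases, 20.6% of the 50-base stretches of Gzmd, 18.2% of those of Gzme and 7.1% of those of Gzmf also occurred in another granzyme of the cluster, and none of those of Gzmc or Gzmb did. Counts of Gzmd, Gzme and Gzmf are uncertain to that extent, because the handling of shared reads is not given in the sources used here.

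Before any result, the samples themselves stood apart. The deposited matrices held 16925615 to 96074582 UMIs per sample, and the median kept barcode had 13048 to 14677 UMIs in the iKO samples and 6557 to 11931 in the control samples. Of the 272 granzyme C/F cells, 83 came from iKO sample 1 and 152 from iKO sample 2, together 86.4%. The iKO samples 3 and 4 gave 0 and 3, and the control samples 1 to 4 gave 16, 8, 7 and 3. Results on iKO cells therefore rest on 2 samples. Trex1 checks no label here, since it had 0 UMIs in the granzyme C/F cells of every sample. No granzyme C/F cell shared its barcode with another matrix, although 45 barcodes occurred in matrices of both pools. In each granzyme C/F cell the strongest hashtag was the one most often strongest in its own matrix. The matrices hold 1 hashtagged sample each, so this is no independent check of the assignment. None of these cells had a Scrublet doublet score over 0.25.

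The sort was not free of RNA from other cells. Transcripts of a list of 12 monocyte and macrophage genes summed to 196 to 381 CPM (a gene's counts relative to all UMIs of the cell set, on the usual CPM scale) in the granzyme C/F cells, 268 to 717 CPM in the other CD8 T cells and 5295 to 14203 CPM over all kept barcodes. All 272 cells had at least 3 UMIs in the sum of that list and a list of MHC class II and dendritic genes. Of the lists for other cell types, Ncr1 (NK cells) was at 0 in every sample with such cells, as were Jchain, Cd209a, Klrb1c, Cd40lg and Krt14, Trdc (gamma-delta T cells) had 1 UMI in all, and the melanoma and stroma list summed to 0 to 44.7 CPM. The B cell and plasma list summed to 0 to 361 CPM, the neutrophil list to 112 to 264 CPM, the NK and gamma-delta list to 43.4 to 157 CPM, the MHC class II and dendritic list to 528 to 1731 CPM, and the CD4 and regulatory T list to 425 to 1385 CPM. In the other CD8 T cells these lists summed, in that order, to 61.7 to 321, 133 to 3174, 79.0 to 167, 735 to 2277 and 286 to 604 CPM. The neutrophil list includes Il1r2, and the CD4 list includes Tnfrsf4 and Ikzf2. These genes are read below as levels in the granzyme C/F cells, so the sums cannot be taken as RNA of other cells alone. The part of RNA from other cells in the results was not tested.

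The label was checked against its markers. Prf1, perforin, had a UMI in 98.2% of the granzyme C/F cells, against 73.4% of the other CD8 T cells and 8.23% of macrophage-like barcodes (Csf1r+ Lyz2+ Cd3e-), which should lack it. With each cell thinned to 3000 UMIs these shares were 85.7%, 51.2% and 2.02%. Gzmb had a UMI in 99.6% of the granzyme C/F cells, 77.0% of the other CD8 T cells and 25.0% of macrophage-like barcodes, and thinned in 93.8%, 65.4% and 6.69%. Ccl1, a chemokine that binds CCR8, was given as a marker but had a UMI in only 24.6% of them, against 7.03% of the other CD8 T cells and 2.47% of macrophage-like barcodes (thinned 12.9%, 4.07% and 0.471%). Some receptors of activated and exhausted T cells were also there. Pdcd1 had a UMI in 98.5% of the granzyme C/F cells, 72.7% of the other CD8 T cells and 5.19% of macrophage-like barcodes (thinned 69.1%, 52.0% and 1.19%). Havcr2 had one in 96.0%, 53.4% and 50.6% (thinned 50.7%, 28.5% and 20.4%). Tigit was in only 12.5% of the granzyme C/F cells and 10.1% of the other CD8 T cells. The cells were deeper than their comparison, with 13303.5 to 18631 UMIs at the median by sample against 7351 to 12096 in the other CD8 T cells, so unthinned shares of the 2 sets are at unlike depths.

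The 2 transcripts of the rule were unequally shared among the cells. Gzmc alone was counted in 77 cells, Gzmf alone in 58 and both in 137, and the median cell had 14.5 Gzmc and Gzmf UMIs together. The range ran to 698 UMIs, and the 10 highest cells held 30.3% of these UMIs. By comparison the median cell had 48 Gzmb UMIs and 18 Prf1 UMIs, and the 10 highest cells held 19.1% and 19.7% of them. Near the threshold, 341 CD8 T cells had 1 or 2 Gzmc and Gzmf UMIs and stayed outside, and 46 had 3 or 4 and were inside. A further 56 cells had 5 to 9 and 170 had 10 or more, so most of the granzyme C/F cells lay well inside.

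**Figure D1:**
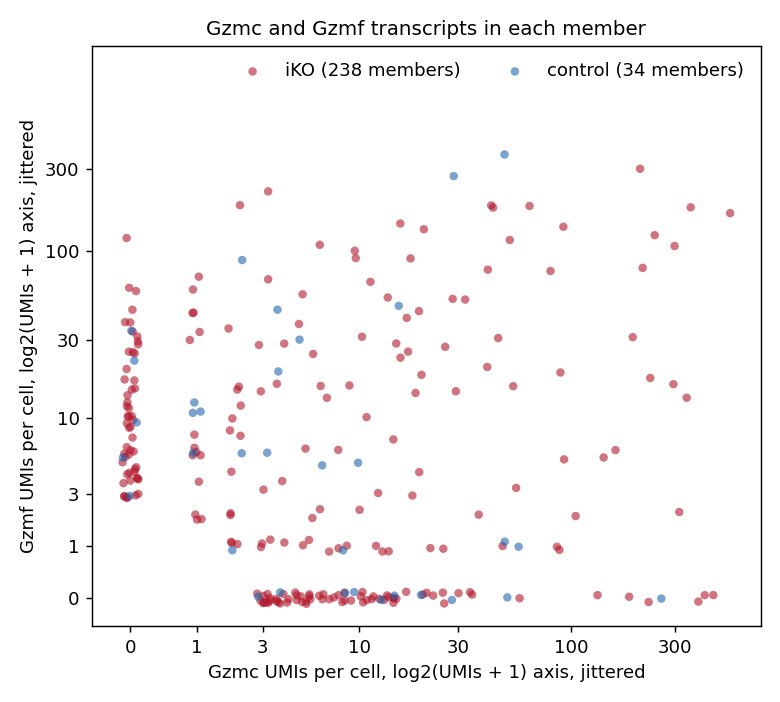
Each point is 1 of the 272 granzyme C/F cells (members), with its Gzmc UMIs on the horizontal and its Gzmf UMIs on the vertical axis, both on a log2(UMIs + 1) scale with small random shifts; red points are iKO and blue points control. The cells on the left edge (58) have Gzmf only, those on the lower edge (77) Gzmc only, and the 137 between carry both, from 3 UMIs in all up to 698.

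Gzmd and Gzme, the neighbouring granzymes, marked a minority of the cells. Gzmd had a UMI in 19.9% of the granzyme C/F cells and Gzme in 20.6%, against 0.904% and 1.27% of the other CD8 T cells and 0.809% and 0.775% of macrophage-like barcodes. Thinned to 3000 UMIs per cell, Gzmd was seen in 12.9% of the granzyme C/F cells, 0.332% of the other CD8 T cells and 0.176% of macrophage-like barcodes, and Gzme in 14.0%, 0.291% and 0.153%. The transcripts went together: 66 cells had Gzmd or Gzme and 44 of them had both. They were in 37.2% of the cells that had both Gzmc and Gzmf, in 13.0% of those with Gzmc only and in 8.62% of those with Gzmf only. They were also graded along the rule's own count, with Gzmd or Gzme in 1 of 46 cells with 3 or 4 Gzmc and Gzmf UMIs, 4 of 56 with 5 to 9, and 61 of 170 with 10 or more. The 10 highest cells held 69.8% of all Gzmd UMIs and 60.0% of all Gzme UMIs.

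Transcripts of the chemokines Ccl1 and Xcl1 were even more concentrated in few cells. The 10 highest cells held 83.2% of the Ccl1 UMIs, and 1 cell alone had 549 of the 2110. In control sample 4 a single granzyme C/F cell held 414 Ccl1 UMIs. Ccl1 was in 33.8% of the cells with Gzmc only, 27.7% of those with both and 5.17% of those with Gzmf only. Xcl1, which attracts cross-presenting dendritic cells, followed the same form: 1 cell had 192 of its 334 UMIs. A level of Ccl1 or Xcl1 summed over a sample is thus set by very few cells.

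The share of granzyme C/F cells differed widely among the iKO samples and little among the controls. They made up 15.1% of the CD8 T cells in iKO sample 1 (95% exact Clopper-Pearson interval 12.2% to 18.4%) and 11.7% in iKO sample 2 (10.0% to 13.6%). In iKO sample 3 there were 0 among 96 CD8 T cells, where the exact interval reaches up to 3.77% and a limit of 3 counts lies at 3.13%, and in iKO sample 4 the share was 1.76% (0.365% to 5.07%). The control shares were 6.56% (3.79% to 10.4%), 6.15% (2.69% to 11.8%), 5.04% (2.05% to 10.1%) and 3.57% (0.743% to 10.1%). These intervals cover counting error only. All 4 control samples lay between the 2 high and the 2 low iKO samples, so the groups overlapped.

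Between genotypes the shares did not differ beyond that spread: 7.16% ± 7.41 in iKO and 5.33% ± 1.34 in control (SD, n = 4 each; p = 0.6, two-sided exact permutation test, adjusted p = 0.6 over 2 shares). Taken over all kept barcodes, the iKO mean was 1.21% ± 1.34 and the control mean 0.412% ± 0.300 (p = 0.4, same exact test, adjusted p = 0.6). The smallest p that 4 samples against 4 can give is 0.0286. Without iKO sample 1 the difference in the share of CD8 T cells turned from 1.83 to -0.826 percentage points, so its sign rests on that sample. With every cell thinned to 3000 UMIs and the whole rule applied again, the iKO shares became 12%, 7.38%, 0% and 0.758% and the control shares 4.84%, 3.13%, 7.55% and 3.45%.

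**Figure D2:**
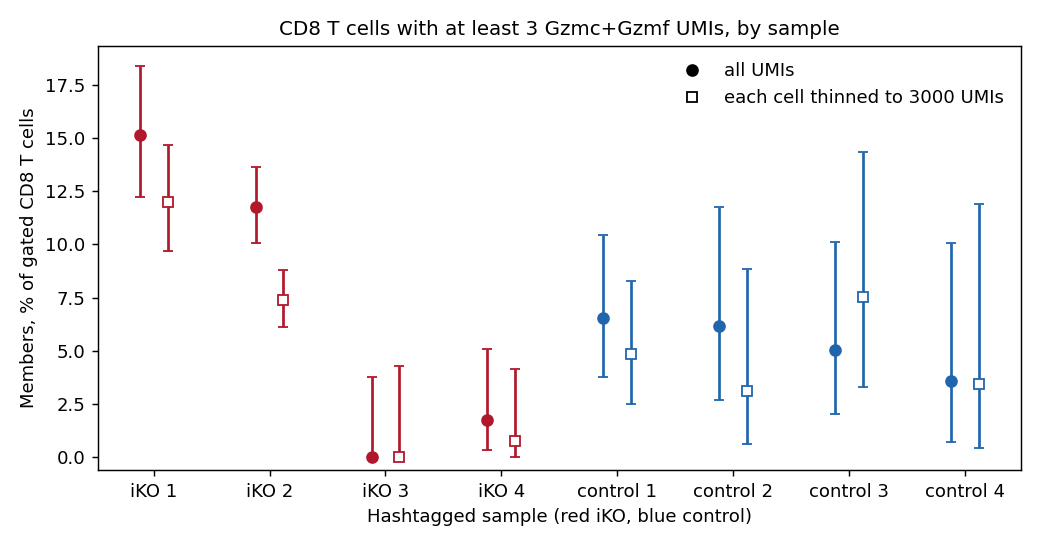
Granzyme C/F cells (members) as a percentage of CD8 T cells in each of the 8 hashtagged samples, with 95% exact binomial intervals; filled circles use all UMIs and open squares cells thinned to 3000 UMIs, red for iKO and blue for control. The iKO samples 1 and 2 lie at 15.1% and 11.7% with all UMIs, the iKO samples 3 and 4 at 0% and 1.76%, and the 4 control samples between them at 3.57% to 6.56%.

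A lower threshold is not usable in the sparse samples. In macrophage-like barcodes, which should have neither transcript, 9.29% to 11.4% in the iKO samples and 2.80% to 4.01% in the control samples had at least 1 Gzmc or Gzmf UMI. CD8 T cells with at least 1 such UMI made up 32.1%, 26.7%, 7.29% and 8.24% in the iKO samples 1 to 4, and 14.8%, 11.5%, 10.1% and 7.14% in the controls. In the iKO samples 3 and 4 this was no higher than the share in macrophage-like barcodes, and no expression is read from it. The depths were unlike, with medians of 16000 and 16323.5 UMIs in the macrophage-like barcodes and 7351 and 7754 in the other CD8 T cells of these 2 samples. At 3 or more UMIs the macrophage-like share fell to at most 0.262% in any sample.

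Many cells with the 2 granzymes exceeded the limit on cycling genes and were kept out by the rule. Of 983 kept barcodes with at least 3 Gzmc and Gzmf UMIs, 39 had no Cd3e, 31 lacked Cd8a or Cd8b1, 203 had a Cd4, Foxp3 or Csf1r UMI, and 438 exceeded the limit on Mki67 and Top2a. Without that limit, 61.7% of the CD8 T cells with at least 3 Gzmc and Gzmf UMIs were over it, against 34.1% of those below 3. At 3000 UMIs per cell, the rule was applied again with lower cutoffs. Cells with any Gzmc or Gzmf UMI were set against those with none, and any Mki67 or Top2a UMI counted as cycling. The cycling shares on these cutoffs, not comparable with those above, were 45.4% and 38.6% over all samples. By sample they were 53.5% and 44.3% in iKO sample 1, 42.5% and 40.6% in iKO sample 2 and 41.9% and 32.3% in control sample 1, but 16.7% and 32.0% in control sample 2 and 20.0% and 24.2% in control sample 3, so the order did not hold in every sample. The granzyme C/F cells described here are the ones within the rule's limit on Mki67 and Top2a.

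The genes that set the granzyme C/F cells off from other CD8 T cells were compared within samples that had at least 10 of them: iKO samples 1 and 2 and control sample 1. The cells were divided by measured counts, so these differences, on the log2(CPM + 10) scale with the SD over 3 samples, are a description without a test. Of 2713 genes at 50 CPM or more in either set, 29.2% were higher and 29.3% were lower in the granzyme C/F cells in all 3 samples, with a median difference of 0.01. Against the narrower Pdcd1+ Tcf7- cells, 19.9% of 2676 genes were higher in all 3 and 27.7% lower, with a median of -0.02. A gene that moved the same way in 3 samples is therefore common, and sizes matter more than signs. Among the 25 genes with the highest and lowest mean differences, 22 had 1 sign in all 5 samples with at least 5 granzyme C/F cells, but these genes had been taken from those with 1 sign in 3 of the 5, so only the other 2 samples were free of the choice.

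Cytotoxic granule genes led. Gzmd was at 572, 134 and 408 CPM in the granzyme C/F cells of iKO sample 1, iKO sample 2 and control sample 1, and at 0.998, 0.933 and 0.844 CPM in the other CD8 T cells, a difference of 4.90 ± 1.05. Gzme was at 479, 129 and 404 CPM against 2.66, 1.22 and 1.69 CPM, a difference of 4.68 ± 0.92. Both were lower in iKO sample 2 than in the other 2 samples. Prf1 was at 1734, 1569 and 2588 CPM against 1025, 624 and 388 CPM, a difference of 1.59 ± 1.01. Gzmb was at 4046, 3925 and 2929 CPM against 2538, 1690 and 464 CPM, a difference of 1.5 ± 1.01. For Prf1 and Gzmb the gap was widest in the control sample, where the other CD8 T cells had the least of both.

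Not all granule genes moved that way. Gzma, a tryptase of NK and effector T cells, was at 55.0, 17.7 and 6.37 CPM in the granzyme C/F cells and at 130, 98.6 and 237 CPM in the other CD8 T cells, a difference of -2.33 ± 1.44 that was -0.49 ± 1.14 against the Pdcd1+ Tcf7- cells. The shares of cells with a Gzma UMI, over all samples, were close, at 11.03% and 11.05% (thinned 4.78% and 6.44%). Gzmk, found in memory-like and pre-exhausted cells, was lower by a similar amount in every sample, with a difference of -0.68 ± 0.03. Nkg7, a granule membrane protein, did not separate the sets (0.02 ± 0.26). Lamp1, the lysosome membrane protein that degranulation brings to the surface, was lower (-1.06 ± 0.29). Of 14 compared genes of the granule list, 8 were higher and 4 lower in all 3 samples, with a median of 0.26.

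Serpins, the inhibitors that shield cytotoxic cells from their own granzymes, were higher. Serpinb9b, a close relative of the granzyme B inhibitor Serpinb9, was at 127, 128 and 15.9 CPM in the granzyme C/F cells against 13.1, 8.40 and 2.11 CPM, a difference of 2.19 ± 0.96, and stood far higher in the 2 iKO samples than in the control. Serpinb6b was at 418, 289 and 608 CPM against 156, 126 and 145 CPM, a difference of 1.5 ± 0.44. Serpinb9 itself differed by 0.96 ± 0.14 and Serpinb6a by 0.79 ± 0.28. In all, 4 of 5 compared serpins were higher in all 3 samples and none lower, with a median of 0.96. Members of this family share sequence, so counts may be divided between them. Serpine2, an extracellular protease inhibitor outside that list, differed by 1.18 ± 0.29.

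Cytokines and chemokines went in both directions. Ifng, the cytokine that induces antigen presentation, was at 1273, 937 and 780 CPM against 699, 682 and 308 CPM, a difference of 0.87 ± 0.43. Spp1, osteopontin, was at 119, 226 and 649 CPM against 68.2, 77.2 and 173 CPM, a difference of 1.34 ± 0.57. Spp1 is also a macrophage gene, with a UMI in 57.2% of macrophage-like barcodes and 51.8% of the granzyme C/F cells. Ccl3 and Ccl9, which attract myeloid cells, differed by 0.92 ± 0.69 and 1.03 ± 0.39. Ccl9 had a UMI in 73.6% of macrophage-like barcodes against 36.0% of the granzyme C/F cells, and Ccl3 in 61.9% against 90.4%. Ccl1 differed by 0.74 ± 0.68, with 0.18 in iKO sample 1 and 1.49 in iKO sample 2. Ccl5, made by memory and effector T cells, was lower by a narrow range of values in all 3 samples (-0.86 ± 0.26). Xcl1 was lowest, at 27.8, 80.8 and 9.55 CPM against 124, 285 and 499 CPM, a difference of -2.74 ± 1.70. Over all samples Xcl1 had a UMI in 10.7% of the granzyme C/F cells and 15.6% of the other CD8 T cells (thinned 3.68% and 9.22%). Of 7 compared chemokines, 3 were higher and 3 lower in all 3 samples, with a median of 0.42.

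Some surface receptors of activated T cells were higher, among them Il1r2, Tnfrsf4, Tnfrsf9 and Havcr2, while the 2 sets had like levels of Pdcd1. Il1r2, a decoy receptor for interleukin 1, was at 150, 87.7 and 108 CPM against 21.3, 20.0 and 27.8 CPM, a difference of 1.90 ± 0.40. The gene is also made by neutrophils and was in 26.0% of macrophage-like barcodes. Tnfrsf4 (OX40), a costimulatory receptor, was at 250, 224 and 290 CPM against 96.8, 67.8 and 139 CPM, a difference of 1.29 ± 0.29. Tnfrsf9 (4-1BB), another, differed by 0.98 ± 0.17 and the inhibitory receptor Havcr2 (TIM-3) by 0.80 ± 0.49. Pdcd1 (PD-1) was at 439, 424 and 213 CPM against 420, 428 and 211 CPM, a difference of 0.02 ± 0.04. Of 9 costimulatory receptors, 4 were higher and 1 lower in all 3 samples (median 0.17), and of 9 inhibitory receptors, 4 were higher and 1 lower (median 0.24). Against the Pdcd1+ Tcf7- cells 3 of 9 costimulatory receptors were higher and 1 lower (median 0.12), and 2 of 9 inhibitory receptors were higher and 2 lower (median 0.04). The cytokine receptors gave 3 higher and 4 lower of 10, with Il7r, the interleukin 7 receptor of memory cells, at -1.25 ± 1.11 against the other CD8 T cells and 0.08 ± 0.64 against the Pdcd1+ Tcf7- cells.

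**Figure D3:**
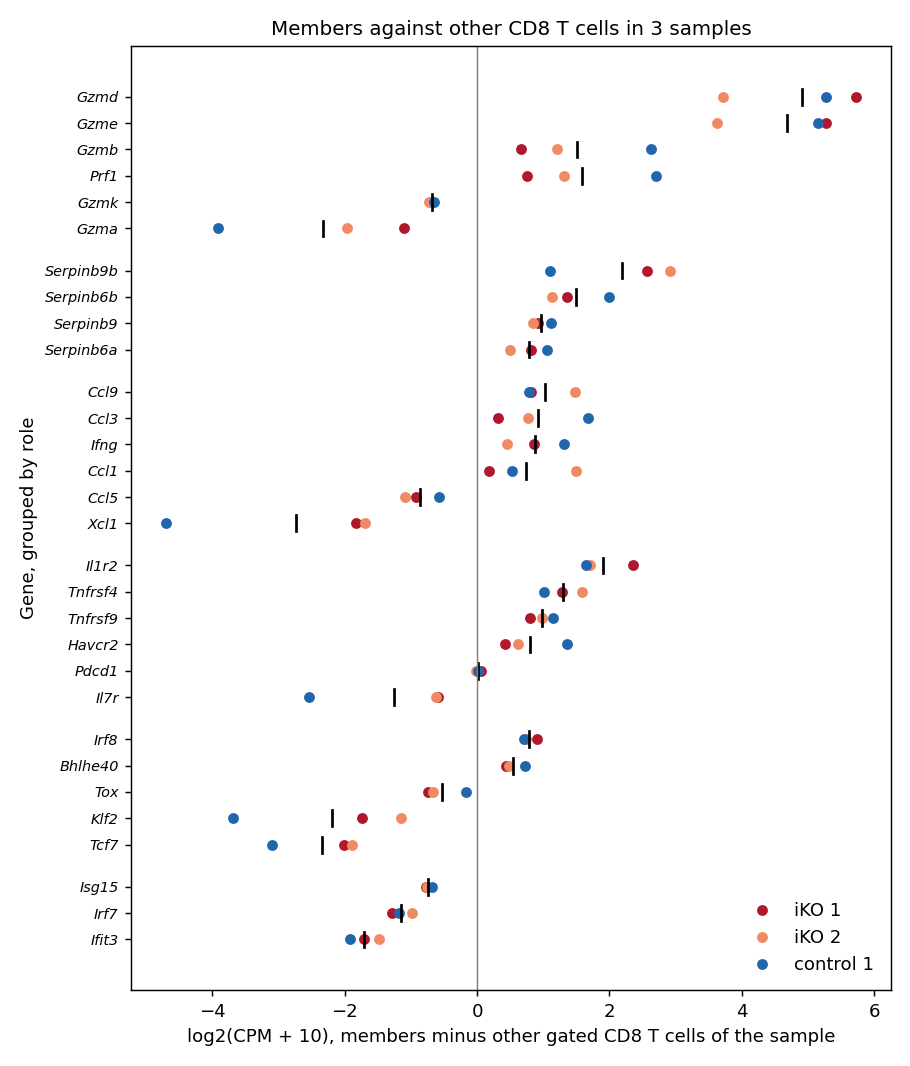
Difference in log2(CPM + 10) between granzyme C/F cells (members) and the other CD8 T cells of the same sample, for 30 genes grouped by role; each point is 1 sample (dark red iKO 1, orange iKO 2, blue control 1) and the black tick is the mean. Gzmd and Gzme lie farthest to the right at means of 4.90 and 4.68, Pdcd1 sits at 0.02, and Xcl1, Gzma, Klf2 and Tcf7 lie to the left.

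Genes of naive and memory T cells were low. Tcf7, the transcription factor TCF-1 of naive, memory and progenitor cells, was at 1.77, 1.04 and 3.18 CPM in the granzyme C/F cells and at 37.3, 31.1 and 103 CPM in the other CD8 T cells, a difference of -2.33 ± 0.67. Klf2, which maintains quiescence and recirculation, differed by -2.19 ± 1.32 and the membrane protein gene Emb by -1.80 ± 0.51. All 7 compared genes of the naive and memory list were lower in all 3 samples, with a median of -1.47, and all 3 that could be compared were lower against the Pdcd1+ Tcf7- cells. Among transcription factors of T cell fate, 5 of 16 were higher and 6 lower. Irf8 was at 357, 364 and 353 CPM against 187, 214 and 212 CPM, a difference of 0.79 ± 0.10. Bhlhe40, which T cells need for cytokine production, differed by 0.55 ± 0.15. Tox, the factor that sustains the exhausted state, was lower, at 144, 175 and 261 CPM against 247, 282 and 296 CPM, a difference of -0.52 ± 0.30 that was -0.77 ± 0.17 against the Pdcd1+ Tcf7- cells.

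Metabolic genes were higher together. Of 16 compared genes of glycolysis and hypoxia, 12 were higher in all 3 samples and none lower, with a median of 0.39, and against the Pdcd1+ Tcf7- cells 10 were higher and none lower. The glucose transporter Slc2a3 differed by 0.89 ± 0.10, lactate dehydrogenase Ldha by 0.72 ± 0.31 and phosphoglycerate kinase Pgk1 by 0.68 ± 0.27. The metallothioneins Mt1 and Mt2, which bind zinc and copper, differed by 1.40 ± 0.33 and 1.13 ± 0.35, and the glycine cleavage enzyme Gldc by 1.29 ± 0.25. The cell cycle inhibitor Cdkn1a differed by 1.09 ± 0.50. The remaining lists gave no one direction. Of 7 cell cycle genes 4 were higher and 1 lower in all 3 samples, of 12 immediate-early and heat-shock genes 2 and 4, of 7 killer lectin-like and NK receptors 3 and 3, and of 6 chemokine and homing receptors 1 and 4. AA467197, which is in no list, was at 482, 432 and 242 CPM against 173, 171 and 74.3 CPM, a difference of 1.43 ± 0.15.

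Interferon-stimulated genes were lower in the granzyme C/F cells than in their neighbours of the same sample, in both genotypes. Isg15, a ubiquitin-like interferon product, was at 187, 216 and 50.9 CPM against 325, 372 and 87.8 CPM, a difference of -0.74 ± 0.05. Irf7, which amplifies interferon production, was at 44.4, 57.2 and 9.55 CPM against 122, 122 and 34.2 CPM, a difference of -1.15 ± 0.15. Ifit3, which acts against viral RNA, differed by -1.70 ± 0.22 and the GTPase Iigp1 by -1.58 ± 0.10. Of 29 compared genes of the type I interferon list, 23 were lower in all 3 samples and none higher, with a median of -0.59. Against the Pdcd1+ Tcf7- cells, 21 of 26 were lower and none higher, with a median of -0.50. The list of interferon gamma and MHC class I genes followed with 17 of 22 lower, none higher and a median of -0.33.

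S100a8 and S100a9, calprotectin genes of neutrophils, were also low (differences -2.91 ± 1.84 and -2.48 ± 1.19). Here the comparison cells were uneven: the other CD8 T cells of control sample 1 had 1354 CPM of S100a8, against 148 and 114 CPM in iKO samples 1 and 2, and the granzyme C/F cells had 28.4 to 31.8 CPM in these 3 samples. The neutrophil list summed to 3174 CPM in those control cells. Its part in the difference was not tested.

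Levels were also read along the rule's own count. In cells thinned to 3000 UMIs, Prf1 in iKO sample 2 stood at 510 CPM with no Gzmc or Gzmf UMI, 603 CPM with 1 or 2, 678 CPM with 3 or 4, 1376 CPM with 5 to 9 and 1547 CPM with 10 or more. In iKO sample 1 the same classes had 851, 1150, 1528, 1255 and 1685 CPM. Gzmd in thinned cells was at 0 in the classes of 1 or 2 and of 3 or 4 UMIs in both iKO samples and reached 735 and 123 CPM at 10 or more. Tnfrsf4 in iKO sample 2 went from 51.4 through 67.4, 92.0 and 118 to 174 CPM, and in iKO sample 1 it was at 80.4, 108, 139, 353 and 167 CPM, so it did not rise at every step there. Tcf7 in iKO sample 1 went from 47.0 to 14.3 CPM and then to 0 from 3 UMIs on. Isg15 in iKO sample 1 was at 382, 323, 250, 157 and 253 CPM, so it was low from 3 UMIs on without falling at every step. The classes held 12 to 31 cells at 3 to 9 UMIs.

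**Figure D4:**
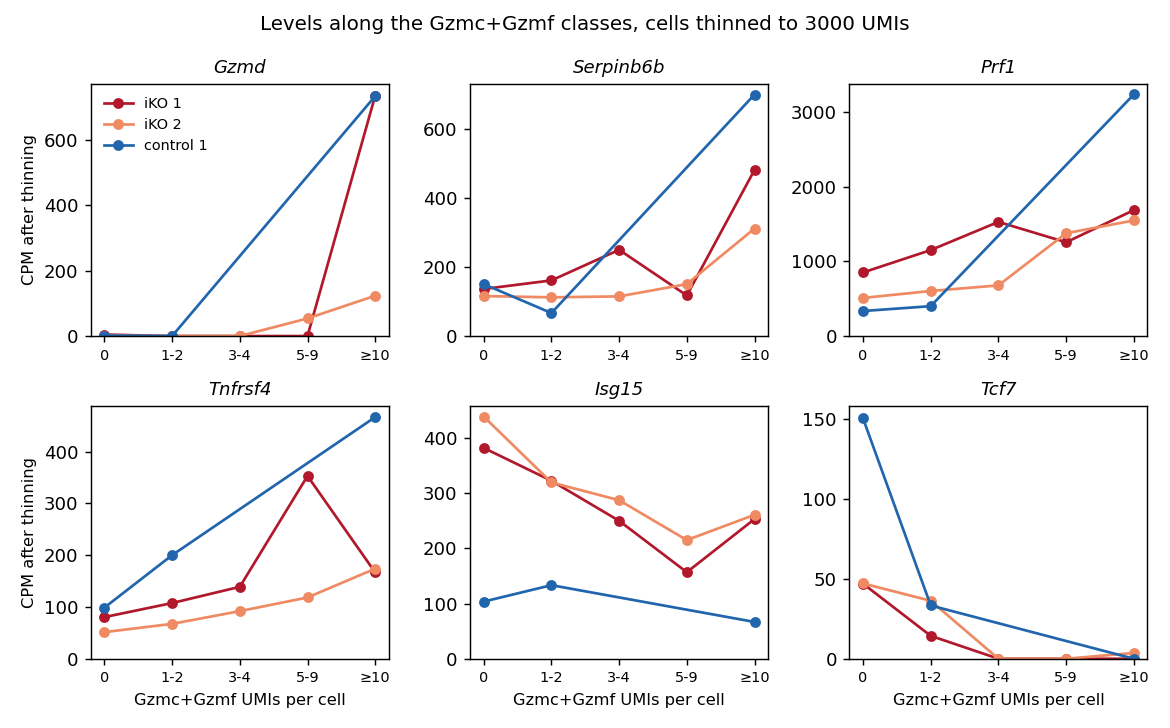
Level of 6 genes (CPM after thinning to 3000 UMIs per cell) in CD8 T cells grouped by their Gzmc and Gzmf UMIs, from 0 to 10 or more; lines join the classes of 1 sample with at least 10 cells, so control 1 (blue) has no points at 3-4 and 5-9. Gzmd is near 0 until the higher classes, Prf1 and Tnfrsf4 are higher at 10 or more than at 0, and Tcf7 is at or near 0 from 3 UMIs on.

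Interferon-stimulated genes were higher in the iKO than in the control granzyme C/F cells. Only control sample 1 reached the 10 cells first set as a minimum, so samples with at least 5 cells were used: iKO samples 1 and 2 against control samples 1, 2 and 3, with 83, 152, 16, 8 and 7 cells. This limit was chosen after the cell numbers were seen. Counts were summed per sample and compared with edgeR's quasi-likelihood test and Benjamini-Hochberg adjustment over all 4313 genes tested, leaving out the genes of the rule, and CPM here are TMM-scaled (corrected for RNA composition). At an adjusted p under 0.05, 0.742% of genes (32) were higher and 0.556% (24) lower in iKO. The median log2 fold change was -0.02, and 504 genes had an unadjusted p under 0.05.

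The type I interferon list held 12 of the 32 higher genes. Of its 26 tested genes, 12 were higher at an adjusted p under 0.05, none was lower and all 26 had a positive log2 fold change, with a median of 1.11. Ifi27l2a was at 3015 and 3396 CPM in iKO and at 403, 267 and 325 CPM in control, a log2 fold change of 3.23 (SE 0.167, edgeR adjusted p = 4.33e-08). Isg15 was at 205 and 234 CPM against 55.2, 18.4 and 0 CPM, a log2 fold change of 2.68 (SE 0.379, edgeR adjusted p = 0.00309). Neither gene overlapped between the groups, which with 2 samples against 3 was so for 27.0% of all 4313 genes tested. Usp18, which removes ISG15 and restrains interferon signalling, had 56 and 143 UMIs in iKO and none in the 3 control samples, so that it was at least 7.63-fold higher in unscaled CPM, taking 3 counts over the control group as the floor (edgeR adjusted p = 0.02). Zbp1, a sensor of left-handed nucleic acid, was at 147 and 161 CPM against 41.4, 64.3 and 42.8 CPM, a log2 fold change of 1.72. Bst2 (tetherin), which holds enveloped viruses at the cell surface, rose by 1.49 on the log2 scale. Also past the threshold were Slfn1, Phf11b, Xaf1, Ifitm3, Irf7 and Ly6a, with log2 fold changes of 1.24 to 2.52. Leaving out each sample in turn, 7 to 11 genes of the list were called. Ifi27l2a, Isg15, Zbp1, Bst2 and Ly6a were called in all 5 such fits. Irf7 was called in none of the 4 that tested it, and Xaf1 only without control sample 1 (edgeR adjusted p up to 0.0972 and 0.155). Usp18 lost its call without control sample 1 (edgeR adjusted p = 0.0666), Phf11b without control sample 2 (0.0642), Slfn1 without control sample 1 or 3 (up to 0.118), and Ifitm3 without iKO sample 1 or control sample 2 or 3 (up to 0.142).

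Interferon genes also rose outside these cells. In the other CD8 T cells, compared over all 8 samples, 2.03% of 7984 genes were higher and 1.4% lower in iKO, and 38 of 45 tested interferon genes were higher, with a median log2 fold change of 1.41. Of the 56 genes called in the granzyme C/F cells, 35 were called with the same sign in the other CD8 T cells. A test of the difference between the effects in the 2 cell sets, within iKO samples 1 and 2 and control sample 1, called 0.483% of 10144 genes (22 higher, 27 lower), among them 1 interferon list gene in each direction of 47 tested. With only 1 control sample that fit has 1 residual degree of freedom and does not measure the spread between control samples, so its calls support nothing here. Over the 5 samples with at least 5 cells, the same test had 3 residual degrees of freedom and called 0.238% of 9232 genes. None of 46 tested interferon list genes was called by edgeR, while 8 had an unadjusted p under 0.05.

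Outside the interferon list, Ly6c2, a surface antigen of effector and memory CD8 T cells that interferon also induces, was higher in iKO. It was at 1312 and 1376 CPM in iKO and at 152, 184 and 128 CPM in control, a log2 fold change of 3.13 (SE 0.188, edgeR adjusted p = 1.63e-07). The rise was larger than in the other CD8 T cells by 1.71 over the 5 samples (SE 0.217, edgeR adjusted p = 9.71e-12). The difference was 0.73 against the Pdcd1+ Tcf7- cells (edgeR adjusted p = 0.574), where the iKO effect on Ly6c2 was 2.48. Serpinb9b was at 139 and 139 CPM against 17.2, 0 and 0 CPM, a log2 fold change of 3.83 (SE 0.465, edgeR adjusted p = 0.000821) that rests on 5 UMIs in control. It was the only serpin called of 6 tested, and their median was -0.39. The heat-shock genes Hspa1b and Hspa1a rose by 2.57 and 2.03 on the log2 scale and were called without any 1 of the 5 samples, but DESeq2 did not call Hspa1a (adjusted p = 0.122). Hsp90aa1 rose by 0.97 and lost its call without iKO sample 1, iKO sample 2 or control sample 2 (edgeR adjusted p up to 0.106), so 3 of 13 tested genes of the immediate-early and heat-shock list were called. Hspa1a and Hspa1b, like Ly6c2 and Ly6c1, are near-identical pairs whose reads may be divided between them. Gm47283 rose by 2.60, and Ifi206, an interferon-inducible gene of the AIM2-like family, by 2.10, with a call in 1 of 5 fits that left out a sample.

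Among the granule genes only Gzmb was called. It was at 4431 and 4261 CPM in iKO and at 3172, 1535 and 1523 CPM in control, a log2 fold change of 1.04 (SE 0.228, edgeR adjusted p = 0.0421). The call was lost without control sample 2 or 3 (edgeR adjusted p up to 0.139) and in DESeq2 (adjusted p = 0.231). Prf1 was at 1898 and 1703 CPM against 2803, 974 and 608 CPM, and control sample 1 stood above both iKO samples (log2 fold change 0.24, SE 0.383, edgeR adjusted p = 0.843). Gzmd was at 626 and 145 CPM against 441, 27.6 and 42.8 CPM and Gzme at 525 and 140 CPM against 438, 119 and 171 CPM, and both overlapped between the groups (edgeR adjusted p = 0.683 and 0.883). Of 15 tested granule genes, 1 was called, and the median log2 fold change was 0.02. Ifng was at 1394 and 1017 CPM against 845, 377 and 385 CPM and missed the threshold (log2 fold change 1.09, SE 0.268, edgeR adjusted p = 0.0597). None of 7 tested effector cytokines and none of 9 inhibitory receptors was called by edgeR or DESeq2, and 2 in each list had an unadjusted p under 0.05 in edgeR.

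The genotype effect on Gzmb and Prf1 was smaller in the granzyme C/F cells than in the other CD8 T cells. Gzmb in unscaled CPM was at 4046 and 3925 in the iKO and 2929, 1446 and 1441 in the control granzyme C/F cells. In the other CD8 T cells it was at 2538 and 1690 in iKO and at 464, 195 and 212 in control. The effect differed by -1.70 over the 5 samples (SE 0.168, edgeR adjusted p = 4.19e-20). For Prf1 the difference was -1.32 (SE 0.170, edgeR adjusted p = 2.62e-11). Ccl3 and Ccl4, chemokines of activated effector cells, followed with -1.45 and -1.15 (edgeR adjusted p = 8.58e-15 and 3.69e-09). In each of these 4 genes the control granzyme C/F cells stood above the control comparison cells in all 3 samples. Pdcd1+ Tcf7- cells made up 78.1% and 79.2% of the other CD8 T cells in iKO samples 1 and 2 and 29.5% to 46.5% in control samples 1 to 3, and the part of that difference was not tested. Against the Pdcd1+ Tcf7- cells alone, the call was lost for Ccl4 and for none of the other 3. Prf1 was not called without iKO sample 1 (-0.97, edgeR adjusted p = 0.231) and Ccl4 not without iKO sample 2 (-0.87, edgeR adjusted p = 0.318).

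Lower genes in iKO were of mixed kinds. Penk, which encodes proenkephalin, was at 26.6 and 27.5 CPM in iKO and at 155, 184 and 377 CPM in control, a log2 fold change of -3.01 (SE 0.314, edgeR adjusted p = 0.000173). Nrn1, neuritin, a membrane protein of neurons and of some T cells, was at 50.5 and 67.4 CPM against 162, 469 and 214 CPM, a log2 fold change of -2.06 (SE 0.324, edgeR adjusted p = 0.00591). Both were called without any 1 of the 5 samples. The gene ENSMUSG00000095041 fell by 1.58 on the log2 scale and was also called in all 5 such fits. Ppic, Bmyc, St6galnac3, Apoe, Wls, Dusp4 and Vamp5, with log2 fold changes of -2.42 to -1.62, each lost their call in at least 3 of 5. Apoe is a macrophage gene, and it was 1 of 3 tested genes of the monocyte and macrophage list, whose median was -1.05.

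A few receptors and signalling genes of the lists were lower in iKO as well. Il18rap, a chain of the interleukin 18 receptor, was at 115 and 100 CPM against 179, 340 and 334 CPM, a log2 fold change of -1.28 (SE 0.242, edgeR adjusted p = 0.0214). The homing receptors Cx3cr1 and Itga4 fell by 1.21 and 1.14 on the log2 scale, 2 of 6 tested in their list. Ikzf2 (Helios) fell by 1.41 and was the only one of 16 tested transcription factors called. Ccl5 was at 3251 and 3115 CPM against 4323, 4219 and 5803 CPM, a log2 fold change of -0.59 (SE 0.135, edgeR adjusted p = 0.0491). These 5 calls moved with single samples. Cx3cr1 was called only without control sample 2 (edgeR adjusted p otherwise up to 0.272), Il18rap only without iKO sample 1 or control sample 1 (up to 0.0767), Itga4 only without iKO sample 2 or control sample 1 (up to 0.509), and Ccl5 only without control sample 1 or 2 (up to 0.191). Ikzf2 lost its call without iKO sample 2 or control sample 2 (up to 0.215). DESeq2 called Il18rap alone of the 5. Tnfrsf4 was at 274 and 243 CPM against 314, 680 and 573 CPM, below every control sample, without passing the threshold (log2 fold change -0.94, SE 0.252, edgeR adjusted p = 0.0955). Of 19 tested genes of glycolysis and hypoxia 1 was called, Eno1, with 0.86, and of 23 genes of the interferon gamma and MHC class I list 1, H2-Q7, with 0.80, while all 23 were positive with a median of 0.42. Eno1 lost its call without iKO sample 1 or 2, and H2-Q7 without either of these or control sample 3 (edgeR adjusted p up to 0.230 and 0.402). Cd74, an MHC class II gene, and S100a9, a neutrophil gene, fell by 1.37 and 1.32 on the log2 scale. Both are in the lists for other cell types. Cd74 lost its call without control sample 2 or 3 and S100a9 without any sample but control sample 2 (edgeR adjusted p up to 0.0854 and 0.247). The part of RNA from other cells in these and the other calls was not tested. Among 9 costimulatory receptors Cd2 was called, with 0.95, and kept its call only without control sample 1. None of 13 cell cycle genes and none of 7 killer lectin-like and NK receptors was called by edgeR, and 3 and 2 of them had an unadjusted p under 0.05. DESeq2 called 0 and 1.

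**Figure D5:**
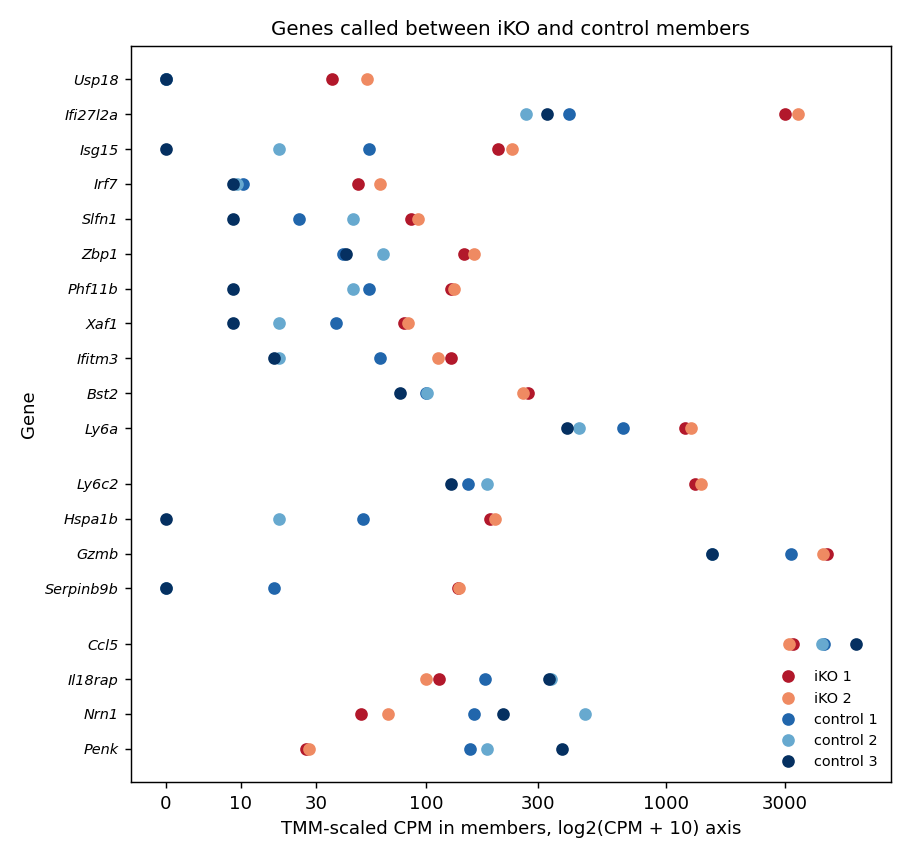
TMM-scaled CPM (log2(CPM + 10) axis) of 19 genes called between genotypes in the granzyme C/F cells (members), 1 point per sample: red and orange for iKO samples 1 and 2, shades of blue for control samples 1 to 3. The upper group are type I interferon genes, such as Ifi27l2a at 3015 and 3396 CPM against 267 to 403 CPM; the middle group were higher in iKO too, and the lowest group, Ccl5, Il18rap, Nrn1 and Penk, were lower in iKO.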

How the data were processed

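Deposited UMI counts, as whole numbers in 1 matrix per hashtagged sample, were used for 32432 genes, without 92 spike-in features and the hashtags. Per the submitters' processing notes they were made with Cell Ranger 7.1.0 on GRCm39. For the use of intronic reads, the treatment of reads shared by genes and the hashtag assignment, no method was given in the sources used here. Promoter sequences are of another build, GRCm38.p6, and no coordinate was carried between builds.

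Barcodes were kept with at least 300 genes and at most 10% mitochondrial UMIs, and the rule was applied to raw counts. Doublets were scored with Scrublet in scanpy 1.11.5 at an expected rate of 0.06. The score removed no cell from the main results. Counts were summed per sample and cell set, and genotypes were compared with edgeR 4.0.16 in R 4.3.3 (TMM, filterByExpr, quasi-likelihood test, Benjamini-Hochberg over all genes tested, threshold 0.05), with all samples of the cell set that qualified and genotype as the only term. The SE is the absolute log2 fold change over the root of its F value. The test between cell sets used the sample as a term. DESeq2 1.42.0 served as an alternative, and shares were compared by exact permutation (scipy 1.17.1). A minimum of 10 cells per sample had been planned for the genotype test but left 1 control sample, so 5 was used. In simulated counts with 200 genes changed 4-fold, 92.0% of them were recovered in the granzyme C/F comparison (4319 genes, false share of calls 5.64%) and 97.0% in the other CD8 T cells (7989 genes, 4.43%).

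The cells and gene lists were chosen with earlier results of these data known. Genes named are those of the lists, up to 10 per direction by fold change among non-overlapping genotype calls, up to 5 per direction by adjusted p in the test between cell sets, and the 15 highest and 10 lowest in the contrast with other CD8 T cells among genes of one sign in every sample. Receptor and immunoglobulin segments, mitochondrial, ribosomal protein and sex-linked genes and the genes of the rule were not named as results. One gene of the lists is not reported here. Between replicates of a genotype, chi-square over its degrees of freedom was 7.63 to 220, so none was a duplicate.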

Additional observations from a re-analysis of the deposited data

Results flagged for a closer look

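In 10 genes the effect of genotype in the granzyme C/F cells passed the edgeR test of its difference from that in the other CD8 T cells, within iKO samples 1 and 2 and control sample 1. That fit has a single control sample and does not measure the spread between control samples, so its values are descriptions. The test is read from the fit over the 5 samples, which itself has only 3 residual degrees of freedom. Values are log2 differences of the effects, and those over the 5 samples with at least 5 cells follow. In the 5-sample fit 9 of the 10 were called, Ifi27l2a being the exception, but S100a8, S100a9, Xcl1, Gm19585, Prf1 and Ccl4 each lost their call without at least 1 of the samples. The effect was larger, or less negative, in the granzyme C/F cells for Ly6c2 (2.02, then 1.71), S100a8 (3.31, then 1.67), S100a9 (2.00, then 1.16), Xcl1 (3.83, then 1.56) and Ifi27l2a (0.76, then 0.49 with an edgeR adjusted p = 0.486). It was smaller for Gzmb (-1.67, then -1.70), Prf1 (-1.65, then -1.32), Ccl4 (-1.0, then -1.15), Ccl3 (-1.10, then -1.45) and Gm19585 (-1.40, then -0.96).

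S100a8, S100a9 and Xcl1 rest on control sample 1. Its other CD8 T cells had 1354 CPM of S100a8 and 499 CPM of Xcl1, and without that sample the 5-sample difference was -0.72 for S100a8 and -0.35 for S100a9, and Xcl1 (0.22), Ifi27l2a (0.22) and Gm19585 (-0.53) were not called. Nor were these 5 genes called without iKO sample 1 or without iKO sample 2, with values of 1.54 and 1.24 for S100a8, 1.11 and 0.76 for S100a9, 1.59 and 1.29 for Xcl1, 0.67 and 0.26 for Ifi27l2a, and -1.05 and -0.75 for Gm19585. For Xcl1 the control value in granzyme C/F cells was 9.55 CPM, from 16 cells. Among 6 groups of 4 samples examined for a sample far from the others (the shares of granzyme C/F cells in CD8 T cells and in kept barcodes, and of Pdcd1+ Tcf7- cells, each in both genotypes), none had one.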

How the results depend on the processing

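The genotype comparison in granzyme C/F cells called 56 genes. The count was 37 with DESeq2, 198 without a filter on low counts, 6 (of 711 tested) with cells thinned to 3000 UMIs, 15 with at least 6 Gzmc and Gzmf UMIs and 32 to 90 without any 1 sample. With limits chosen after seeing the data it was 142 at 10 cells (2 samples against 1) and 8 (of 1836 tested) at 3 cells. Of the interferon list, 12 of 26 tested genes were called. The calls were 9 of 26 with DESeq2, 24 of 47 without the filter and 3 of 7 with thinned cells. They were 3 of 13 at 3 cells, 7 of 24 at 6 UMIs and 7 to 11 of 21 to 39 without any 1 sample. In the other CD8 T cells the 274 calls became 1111 in the 5 samples with at least 5 granzyme C/F cells, 454 without the filter and 120 to 353 without any 1 sample, all added after seeing the data. The test between cell sets called 49 genes, 22 over 5 samples, 20 against Pdcd1+ Tcf7- cells and 6 to 84 without any 1 of the 5 (31 without control sample 3). With thinned cells it called 46, of which 42 were higher and 4 lower, against 22 and 27. With control sample 1 left out S100a8 turned to -0.72 and S100a9 to -0.35, and against the Pdcd1+ Tcf7- cells they turned to -0.48 and -0.70. Tcf7 turned to 0.26 against cells chosen for having no Tcf7. The share of CD8 T cells differed by 1.83 percentage points and by -0.826 to 4.21 without any 1 sample, and that of kept barcodes by 0.344 to 1.20. Except where stated, the cause was not tested.

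Replicate numbers appear in both genotypes, but no label ties same-numbered samples. Deviations of samples with the same number correlated at 0.606, 0.0858, 0.240 and 0.436 for the numbers 1 to 4, and 6 of 8 samples correlated best with their own number. With a replicate block, 8 genes were called in the granzyme C/F cells, 2 of them interferon list genes, and 612 in the other CD8 T cells. A minimum of 20 cells left no control sample. Leaving out cells with 3 or more UMIs of the monocyte and macrophage and the MHC class II and dendritic lists together left no cells. The test between cell sets at 10 cells could not be fitted without 1 sample. The 7 to 16 control cells per sample limit every genotype value.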
